A study of Mus musculus with 22 samples.

Results

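Regions of the spinal cord transcriptome that carried hnRNP A1 footprints in naive mice and in mice with mild experimental autoimmune encephalomyelitis (EAE), but seldom in mice with severe EAE, are described here. All footprints of 10 mice were joined into 82220 union regions, in which footprints that overlapped or touched were merged. The shared regions were chosen by footprint presence alone, as those with a footprint in at least 2 of 3 naive mice, at least 2 of 3 mice with mild EAE and at most 1 of 4 mice with severe EAE. This rule kept 2493 of the 82220 regions. Presence in the 10 mice was thus used to choose the regions and is given below as a description, without a test.

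The study profiled spinal cords of female, wild-type C57Bl/6 mice by CLIPseq, in which ultraviolet light links a protein to the RNA it touches and the protein is then pulled down with its RNA. EAE is an immune-mediated model of multiple sclerosis. The EAE mice were immunized with a myelin peptide, MOG(35-55), emulsified with Freund's complete adjuvant, and received pertussis toxin, and cords were taken 15 days after clinical onset. The age at immunization is 12 weeks in the sample labels and 8 weeks in the series description. The mild group holds mice 3, 4 and 7, with clinical scores of 1.5, 1.5 and 1.0. The severe group holds mice 1, 2, 5 and 6, with scores of 2.5, 3.0, 2.5 and 3.0. The 3 naive mice were age-matched and untreated. Every mouse gave 1 immunoprecipitation with an anti-hnRNP A1 antibody, named as clone 9H10 in the sample labels and as clone 4B10 in the study's methods. Whole cord was used, so a footprint cannot be assigned to a cell type, and fewer cells of a type cannot be told apart from less RNA per cell.

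HnRNP A1 is an abundant nuclear RNA-binding protein with tandem RNA recognition motifs and a glycine-rich tail. It shuttles between nucleus and cytoplasm and is best known as a regulator of splice site choice that often acts against the inclusion of exons. Its recognition motifs bind single-stranded RNA with a core UAG, and repeated UAG motifs in introns and exons are textbook sites of hnRNP A1 splicing control. A footprint is a stretch of genome that remained after input and control immunoglobulin sites had been subtracted. It carries no read count and no strand, so the depth behind a footprint is unknown and a region without one is a region where none was retained.

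The lengths of the lists bear on every count below. Naive mice had 17119 to 17494 footprints and mild EAE mice 9751 to 24433. Severe EAE mice 1, 2 and 6 had 2670, 209 and 673, whereas severe EAE mouse 5 had 31870, the longest list of all. The limit of at most 1 severe mouse was therefore mostly a limit on mouse 5 plus any of 3 short lists. In all, 2752 regions were footprinted in at least 2 naive and at least 2 mild EAE mice, and the limit removed 259 of them. Of the 2752, 2193 (79.7%) carried a footprint of severe EAE mouse 5. With mouse 5 left out, 2699 regions met the rule. The part of list length in the low severe counts was not tested.

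Stretches that carry the pattern are shown first, to let the kinds of sequence be seen. The common stretch of a region is the longest run of nucleotides covered in at least 2 naive and at least 2 mild EAE mice together. Letters are those of the GRCm38 reference on the strand of the gene, 5′ to 3′, with each TAG (UAG in the RNA) in capitals. The first 3 lie in coding sequence, in regions with a footprint in all 6 naive and mild EAE mice and in no severe mouse. In the order shown, the longest run covered in all 6 was 116, 107 and 76 nt, shorter than the stretch printed. *Kcnt1*, which encodes a sodium-activated potassium channel, has its stretch at chr2:25894311-25894453 on the plus strand. *Akap12*, for a scaffold protein that anchors protein kinase A, has it at chr10:4357784-4357928 on the plus strand. *Abca2*, for a lipid transporter that is abundant in oligodendrocytes, has it at chr2:25437245-25437344 on the plus strand.
Kcnt1: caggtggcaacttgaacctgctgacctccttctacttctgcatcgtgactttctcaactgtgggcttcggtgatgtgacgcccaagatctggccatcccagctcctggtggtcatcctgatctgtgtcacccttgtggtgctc
Akap12: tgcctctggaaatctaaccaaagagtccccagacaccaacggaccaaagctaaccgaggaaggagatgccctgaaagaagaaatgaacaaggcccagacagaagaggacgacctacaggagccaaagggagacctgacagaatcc
Abca2: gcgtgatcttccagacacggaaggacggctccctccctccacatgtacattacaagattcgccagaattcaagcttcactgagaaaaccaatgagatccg

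The next 4 lie in introns, and they are built of short tandem repeats. *Shisa9*, for an auxiliary subunit of AMPA receptors, has its stretch at chr16:12203607-12203724 on the plus strand. *Nrg1*, for the growth factor neuregulin 1, has it at chr8:32616829-32616971 on the minus strand. These 2 regions also had a footprint in all 6 mice and in no severe mouse, with runs of 100 and 81 nt covered in all 6. *Nckap5l*, for a microtubule-associated protein, at chr15:99442720-99442981 on the minus strand, and *Rasgrf1*, for a Ras exchange factor of neurons, at chr9:89959393-89959608 on the plus strand, are shown because they held the most UAG among stretches of at most 300 nt.
Shisa9: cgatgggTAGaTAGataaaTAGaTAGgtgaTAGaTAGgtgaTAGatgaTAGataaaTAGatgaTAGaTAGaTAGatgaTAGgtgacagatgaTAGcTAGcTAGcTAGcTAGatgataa
Nrg1: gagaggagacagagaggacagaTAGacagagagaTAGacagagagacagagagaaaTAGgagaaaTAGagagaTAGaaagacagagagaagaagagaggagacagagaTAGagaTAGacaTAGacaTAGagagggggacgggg
Nckap5l: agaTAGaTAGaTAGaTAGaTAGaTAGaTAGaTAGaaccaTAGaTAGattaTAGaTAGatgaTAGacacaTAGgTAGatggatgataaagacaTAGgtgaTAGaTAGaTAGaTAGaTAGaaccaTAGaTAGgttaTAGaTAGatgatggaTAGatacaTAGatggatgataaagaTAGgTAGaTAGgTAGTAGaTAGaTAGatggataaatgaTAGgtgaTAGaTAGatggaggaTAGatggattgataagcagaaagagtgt
Rasgrf1: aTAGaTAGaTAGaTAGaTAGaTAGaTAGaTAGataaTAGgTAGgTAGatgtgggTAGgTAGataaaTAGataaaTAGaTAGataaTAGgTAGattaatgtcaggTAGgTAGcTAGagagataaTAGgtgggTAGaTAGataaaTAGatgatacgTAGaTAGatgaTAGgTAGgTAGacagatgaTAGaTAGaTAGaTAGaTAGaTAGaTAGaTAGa

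The coding stretches of *Kcnt1*, *Akap12* and *Abca2* hold no UAG. The intronic stretches hold 18 UAG in 118 nt (*Shisa9*), 9 in 143 nt (*Nrg1*), 38 in 262 nt (*Nckap5l*) and 38 in 216 nt (*Rasgrf1*). Their centres lie 40942, 266616, 6763 and 5390 nt from the nearest annotated exon end of the gene. Of their bases, 86.3% to 97.9% are marked as repeats in the reference.

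In single mice, the *Kcnt1* region was covered over 173, 116 and 182 nt in naive mice 1, 2 and 3 and over 138, 145 and 182 nt in mild EAE mice 3, 4 and 7. The *Abca2* region was covered over 100, 76 and 138 nt in the naive mice and over 252, 115 and 277 nt in the mild EAE mice. In *Abca2* the mild EAE footprints of mice 3 and 7 ran further 3′, and the naive and mild ranges still overlapped. *Shisa9* was covered over 137, 114 and 136 nt in the naive and 119, 136 and 242 nt in the mild EAE mice. *Nckap5l* was covered over 265, 176 and 267 nt in the naive and 259, 262 and 262 nt in the mild EAE mice, and over 269 nt in severe EAE mouse 5. The *Nckap5l* footprints thus began and ended at nearly the same place in all these mice but naive mouse 2, whose footprint was the shortest.

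**Figure D1:**
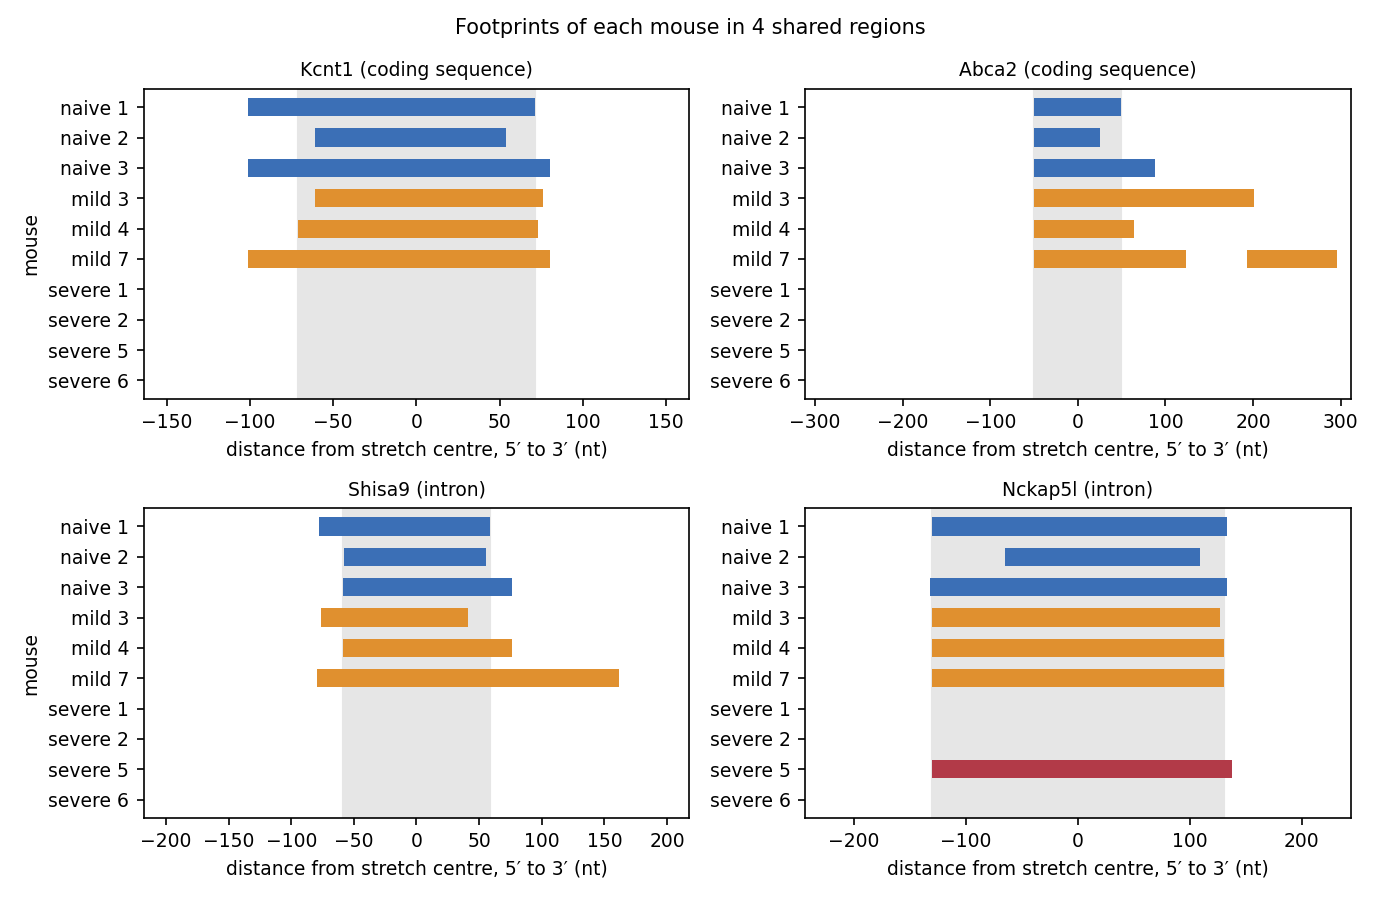
Footprints of the 10 mice (rows) in 4 shared regions, by distance in nt from the centre of the common stretch (grey), with the gene running left to right. Bars are footprints of naive (blue), mild EAE (orange) and severe EAE (red) mice. The 6 naive and mild EAE mice cover each grey stretch at least in part, and among severe mice only mouse 5 has a footprint, in *Nckap5l*.

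Naive mouse 2 had footprints in fewer of the shared regions than the other 5 naive and mild EAE mice. Of the 2493 shared regions, 2207 (88.5%) were footprinted in naive mouse 1, 1281 (51.4%) in naive mouse 2 and 2155 (86.4%) in naive mouse 3. Mild EAE mice 3, 4 and 7 had footprints in 2024 (81.2%), 1700 (68.2%) and 2092 (83.9%). The list of naive mouse 2 was as long as those of the other naive mice. Severe EAE mice 1, 2 and 6 had footprints in 30, 2 and 8 of the regions, and severe EAE mouse 5 in 1935 (77.6%). Over all 82220 regions, mouse 5 had a footprint in 38.2%. Because the rule used these values, nothing is read from the difference.

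Most shared regions met the rule narrowly. Exactly 2 naive and 2 mild EAE mice had a footprint in 1274 (51.1%), and all 6 in 268 (10.8%). No severe mouse had one in 518 (20.8%), and in 23 regions all 6 naive and mild EAE mice and no severe mouse did. Just outside the rule lay 2472 regions with 1 naive mouse in place of 2, 2159 with 1 mild EAE mouse in place of 2, and 231 with 2 severe mice in place of 1. Nearly as many regions therefore missed the rule by 1 naive mouse as met it.

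**Figure D2:**
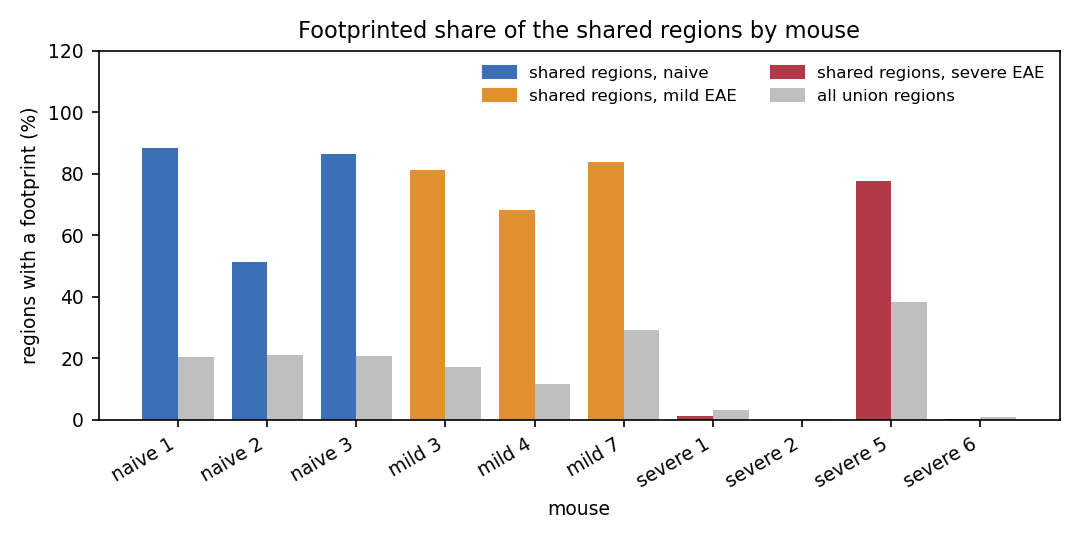
Share of regions with a footprint (y axis, %) in each of 10 mice (x axis), for the 2493 shared regions (coloured by group) and for all 82220 union regions (grey). The shared regions were chosen by this presence. The 6 naive and mild EAE mice reach 51.4% to 88.5%, and severe EAE mouse 5 reaches 77.6% while the other 3 severe mice stay at or under 1.20%.

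The shared regions lay mostly in coding exons. By the midpoint of the region, 1779 (71.4%) were in coding sequence, where the share over all regions was 49.5%. Introns held 395 (15.8%), against 28.2% of all regions. Noncoding exons held 129, 3′ UTRs 43, 5′ UTRs 31 and intergenic sequence 107, and 9 lay on sequences outside the assembled chromosomes. Any exon held 79.5%, against 61.9% of all regions. The 518 regions without a severe footprint and the 1935 with one in mouse 5 had nearly the same make-up, with 71.2% and 71.9% in coding sequence.

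Regions reproduced in 1 group alone lay on either side of this mix. A region was reproduced in a group where at least 2 of its mice had a footprint. Naive-only and mild-only regions could thus still have a footprint in 1 mouse of each other group. Of the 4673 regions reproduced in naive mice only, 2159 had a footprint in 1 mild EAE mouse, and 27.8% were intronic. Of the 5653 reproduced in mild EAE mice only, 2472 had a footprint in 1 naive mouse, and 8.19% were intronic. The shared regions, at 15.8%, fell between them. The comparison within mice gave the same order. In naive mice 1, 2 and 3, an exon held 81.8%, 84.4% and 82.6% of the genic footprints in shared regions and 66.3%, 73.2% and 72.3% of those in naive-only regions. In mild EAE mice 3, 4 and 7, it held 85.9%, 78.6% and 83.5% of those in shared regions and 94.3%, 87.7% and 91.5% of those in mild-only regions. The exonic share was thus higher in shared regions in all 3 naive mice and lower in all 3 mild EAE mice, and over the 6 mice the difference of 1.91 ± 11.6 percentage points (SD) did not pass (two-sided exact sign-flip permutation test, p = 0.656, adjusted p = 0.656 over 8 tests). Against all other footprints of the same mouse, the exonic share was 10.7 ± 13.0 percentage points higher, in 5 of 6 mice (exact p = 0.125, adjusted p = 0.143). The same regions enter in every mouse, so these p-values measure only whether the mice share a direction.

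**Figure D3:**
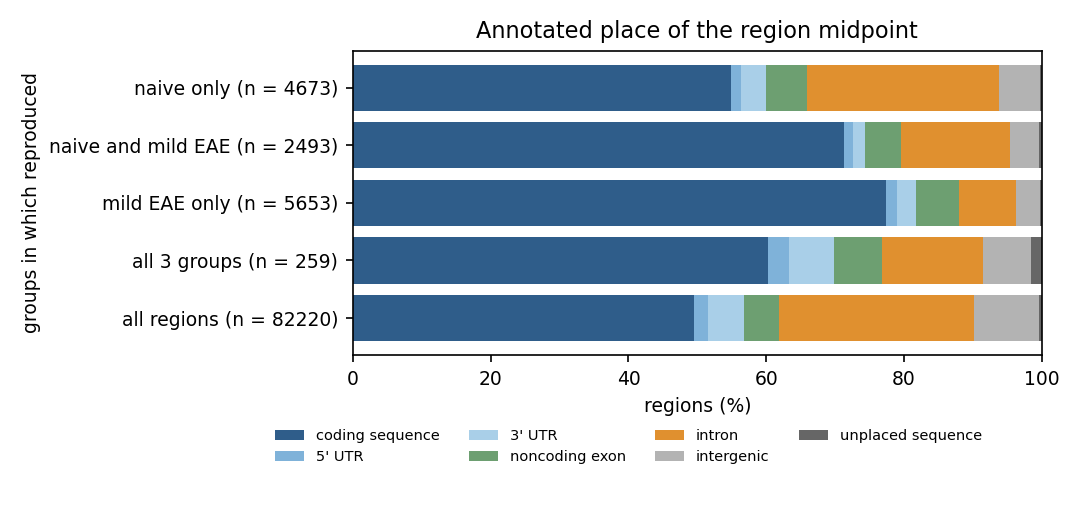
Annotated place of the midpoint of each region (x axis, % of regions) for regions reproduced in naive mice only, in naive and mild EAE mice, in mild EAE mice only, in all 3 groups, and for all union regions. Introns (orange) take 27.8% of naive-only, 15.8% of shared and 8.19% of mild-only regions.

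Most shared regions held nucleotides that the mice had in common. A common stretch existed in 2187 of the 2493 regions (87.7%), with a median of 76 nt (quartiles 46 and 110), while the regions themselves had a median of 156 nt. In the other 306 the footprints of the mice overlapped only through a chain. A stretch covered in all 6 mice existed in 180 regions. Footprints ended at exon borders in many coding regions. Of 1615 coding regions with a common stretch, both ends of the stretch lay within 2 nt of an annotated exon end in 246 (15.2%), 1 end in 1030 (63.8%) and neither in 339. Counted by mouse, 55.3% to 68.9% of the footprints in shared regions had at least 1 end at an exon end, and 30.01% to 68.96% of all other footprints did. Against own-group regions the order differed between the groups. In naive mice 1, 2 and 3 the share was 61.2%, 58.8% and 62.2% in shared and 44.8%, 46.8% and 50.2% in naive-only regions, whereas in mild EAE mice 3, 4 and 7 it was 68.9%, 55.3% and 63.7% in shared and 76.9%, 64.6% and 72.8% in mild-only regions.

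Overlap between pairs of mice was compared within and between the groups. The regions were chosen for joined footprints in both groups, so this overlap cannot show whether the groups differ. The mean nucleotide overlap (shared over covered nucleotides, in shared regions footprinted in both mice) was 0.605 ± 0.0625 over the 3 naive pairs, 0.662 ± 0.0272 over the 3 mild EAE pairs and 0.624 ± 0.0551 over the 9 mixed pairs (SD). The within-group mean exceeded the mixed mean by 0.00909 (exact permutation test over assignments of the 6 mice, p = 0.2, where 0.1 is the smallest possible). The lowest pairs all included naive mouse 2. Severe EAE mouse 5 overlapped the naive mice by 0.582 to 0.680 and the mild EAE mice by 0.647 to 0.695.

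Naive and mild EAE mice were also compared over the shared regions on values other than presence. The regions were chosen for footprints in both groups, and footprint extent enters through the joining of overlaps. No likeness of the groups is therefore read from these tests. Covered nucleotides per footprinted region were 143, 120 and 142 nt in naive mice 1, 2 and 3 and 126, 130 and 147 nt in mild EAE mice 3, 4 and 7. The means of 134.9 ± 12.6 and 134.5 ± 10.9 nt (SD, n = 3 each) differed by less than the spread between mice (exact permutation p = 1). UAG density was 18.1, 10.8 and 18.1 per 1000 nt in the naive and 16.8, 19.0 and 15.3 in the mild EAE mice, with means of 15.7 ± 4.22 and 17.0 ± 1.89 (exact permutation p = 0.8, adjusted p = 1 over 3 tests). The exonic share averaged 82.9% ± 1.36 and 82.7% ± 3.72 (exact permutation p = 1). With 3 mice against 3, no p below 0.1 was possible.

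UAG density was higher in shared regions than elsewhere in each of the 6 mice, a difference that did not pass after adjustment. In naive mice 1, 2 and 3, footprints in shared regions held 18.1, 10.8 and 18.1 UAG per 1000 nt, and those in naive-only regions 15.4, 9.90 and 14.9. In mild EAE mice 3, 4 and 7, the values were 16.8, 19.0 and 15.3 in shared regions and 7.82, 9.43 and 8.72 in mild-only regions. The density was higher in shared regions in 6 of 6 mice, by 0.59 ± 0.43 on the log2 scale (1.51-fold), at the smallest p the exact sign-flip permutation test allows (p = 0.03125), and the adjusted p of 0.0625 over 8 tests did not pass. Against all other footprints the difference was 0.49 ± 0.24 on the log2 scale, with the same p-values. AGGU, an AG-rich motif counted beside UAG that shares bases with it wherever UAGGU occurs, had a density higher by 0.53 ± 0.15 and 0.47 ± 0.09 on the log2 scale against the same references, in 6 of 6 mice each and also at an adjusted p of 0.0625 (exact sign-flip permutation test). UAG and AGGU were searched as TAG and AGGT on the strand of the gene, in footprints that lay over a single gene. The letters are those of the reference and the same shared regions enter in every mouse, so the mice are not independent here. These p-values measure only whether the mice share a direction.

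Most UAG of the shared regions over a single gene lay in introns, 4849 in intronic and 1872 in exonic regions. Intronic footprints in shared regions held 44.0, 29.2 and 50.4 UAG per 1000 nt in naive mice 1, 2 and 3. The mild EAE mice 3, 4 and 7 had 54.7, 45.9 and 41.1. Flanking windows as long as the footprint, placed 200 nt from either end, held 15.3 to 19.4 per 1000 nt, and all 23224 intronic regions together held 18.3 where they lay over a single gene. Every mouse was well above its flanks, with naive mouse 2 the lowest. Exonic footprints held 5.11 to 5.94 per 1000 nt and their flanks 10.3 to 11.4, beside 6.60 over all exonic regions. The flanks were genomic windows not limited to exons, so those of exonic footprints can hold intronic sequence. Among intronic footprints alone, shared regions exceeded own-group regions by 0.81 ± 0.08 on the log2 scale (1.76-fold) and all other footprints by 1.06 ± 0.08 (2.08-fold), in 6 of 6 mice. Among exonic footprints alone the differences were -0.04 ± 0.06 and -0.14 ± 0.06, so the direction turned.

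Of the UAG in intronic shared footprints, 63.2% to 71.9% touched bases that the reference marks as repeats. With marked bases left out, the UAG difference against own-group regions was 0.19 ± 0.38 on the log2 scale and against other footprints 0.01 ± 0.26, and in both the 3 naive mice were below 0 and the 3 mild EAE mice above. The intronic density outside marked bases was still 24.1 to 42.4 per 1000 nt. AGGU density with marked bases left out was higher by 0.26 ± 0.14 and 0.22 ± 0.09 on the log2 scale, in 6 of 6 mice. These restricted comparisons were chosen after seeing the data and are given as values.

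**Figure D4:**
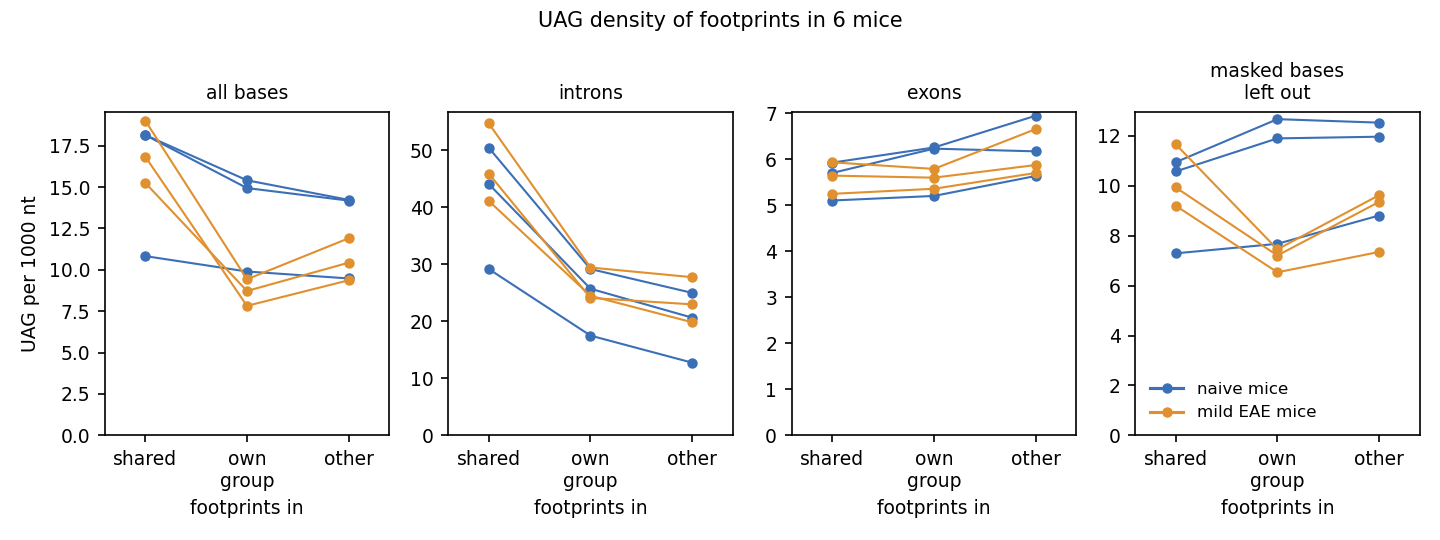
UAG per 1000 nt (y axis, its range differs between panels) in footprints of 3 naive (blue) and 3 mild EAE (orange) mice, for shared regions, regions reproduced only in the mouse's own group, and all other footprints. Over all bases and in introns every line falls from shared to own-group regions, in exons the lines are nearly flat, and without repeat-marked bases the naive lines rise and the mild EAE lines fall.

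Runs of UAG were found in intronic shared regions almost always on the strand of the gene. A run was counted where TAG stood 3 times in a row, each followed by any base (TAGNTAGNTAGN). Of 378 intronic shared regions over a single gene, 85 (22.5%) held such a run on the strand of the gene and 1 (0.265%) on the other strand. Over all 21797 intronic regions the shares were 2.18% and 0.115%, in naive-only regions 5.86% and 0.321%, and in mild-only regions 6.73% and 0.696%. In the 34 intronic regions reproduced in all 3 groups the shares were 41.2% and 2.94%, so runs were not limited to the shared regions, and UAG density there was 39.3 per 1000 nt against 35.2 in the intronic shared regions. The files give no strand, so the strand is that of the annotated gene. Of the 85, severe EAE mouse 5 had footprints in 72. Naive mice 1 and 3 had footprints in 81 and 83, mild EAE mice 3, 4 and 7 in 73, 68 and 70, and naive mouse 2 in 23. The 85 regions lay in 80 genes and had a median length of 208 nt, where the other intronic shared regions had 302 nt. Median lengths of intronic regions were 144 nt over all, 193 nt in naive-only, 216 nt in mild-only and 404 nt in those of all 3 groups. The part of region length in the run shares was not tested.

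*Tgfbr3*, for a co-receptor of transforming growth factor beta, and *Zmat4*, for a zinc finger protein, held the most UAG of all, 43 in a stretch of 334 nt and 41 in 302 nt. The *Tgfbr3* region was covered over 335 and 342 nt in naive mice 1 and 3, over 340 and 338 nt in mild EAE mice 4 and 7, and over 159 nt in severe EAE mouse 1. The *Zmat4* region was covered over 311 and 366 nt in naive mice 1 and 3, over 305, 249 and 303 nt in mild EAE mice 3, 4 and 7, and over 316 nt in severe EAE mouse 5. Naive mouse 2 had no footprint in *Tgfbr3*, *Zmat4* or *Rasgrf1*. Over the 316 intronic shared regions with a common stretch that touched no exon, the stretch lay a median of 10214 nt from the nearest annotated exon end, within 100 nt in 6 and more than 1000 nt away in 266.

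Most common stretches, coding and intronic together, held no UAG. Among 1946 common stretches whose genes ran on 1 strand, 1224 (62.9%) held none, 388 held 1, and 160 (8.22%) held 5 or more. Of the 23 regions footprinted in all 6 mice and in no severe mouse, the 8 with the longest stretch covered in all 6 also included those in *Map3k2* (intron; a kinase of stress signalling), *Pisd* (coding; the mitochondrial enzyme that makes phosphatidylethanolamine, where the model *Gm20671* overlaps) and *Meis3* (coding; a homeobox factor). Their stretches covered in all 6 mice were 136, 87 and 67 nt long. The *Map3k2* stretch of 155 nt held 6 UAG and was 85.8% repeat-marked, whereas those of *Pisd* and *Meis3* held 1 UAG each and were not repeat-marked.

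The shared regions fell in 1137 genes, 8.86% of the 12840 genes with any footprint, and 1009 of them code for protein. A single shared region was found in 633 genes and at least 5 in 79. Protein-coding genes with a shared region had a median span of 46156 nt and 20 coding exons, against 34396 nt and 13 for those with any footprint.

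The 3 genes with the most shared regions were very long genes of the cytoskeleton. Over all 82220 regions 2493 were shared, the share to set beside each count of a gene's own regions here and below. *Dst*, for dystonin, a giant linker of intermediate filaments and microtubules, held 31 of its 141 regions. *Macf1*, for the related microtubule-actin linker, held 30 of 134, and *Syne1*, for the nuclear envelope linker nesprin 1, held 26 of 168. In *Dst*, naive mice 1, 2 and 3 had footprints in 31, 16 and 28 of them, mild EAE mice 3, 4 and 7 in 26, 21 and 26, and severe EAE mouse 5 in 28. All but 1 region in *Dst* and in *Macf1*, and all in *Syne1*, were in coding sequence, and they touched 29, 33 and 26 coding exons. *Sptan1*, for alpha spectrin of the submembrane skeleton, and *Dync1h1*, for the dynein heavy chain that drives retrograde axonal transport, held 15 coding regions each. *Sptan1* had 62 regions in all and *Dync1h1* 79.

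**Figure D5:**
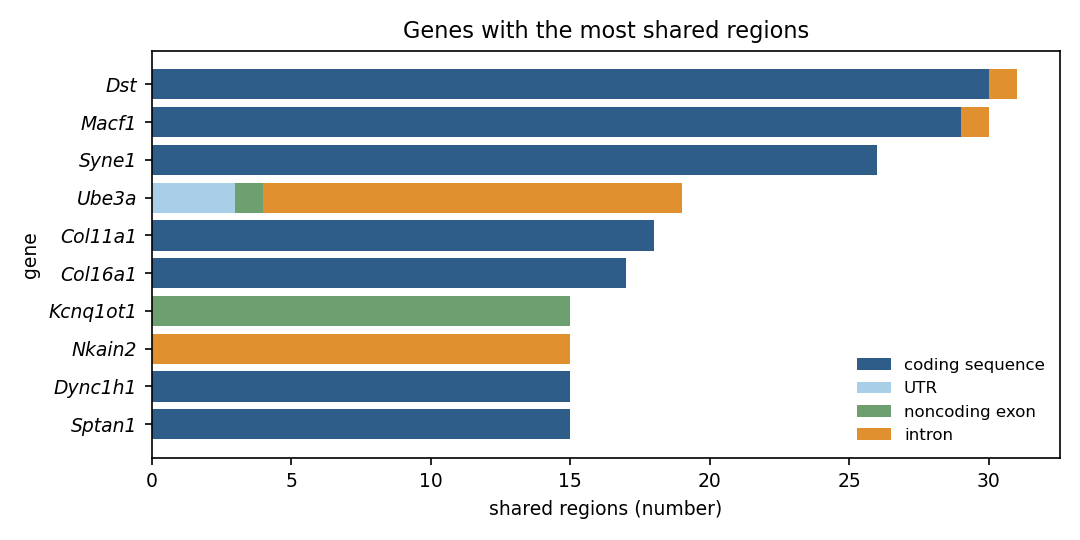
Number of shared regions (x axis) in the 10 genes with the most (y axis), by the annotated place of the region midpoint. *Dst*, *Macf1* and *Syne1* hold 31, 30 and 26, almost all coding, whereas the regions of *Ube3a* and *Nkain2* are mainly intronic and those of *Kcnq1ot1* noncoding.

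A pair of collagen genes was also among the 10, with short regions. *Col11a1*, a fibrillar collagen chain, held 18 regions that touched 19 of its coding exons, and *Col16a1*, a fibril-associated chain, held 17 that touched 19. The median region was 55.5 and 46 nt long, where those of *Dst* had 155 nt. Severe EAE mouse 5 had footprints in 13 of the 18 and 13 of the 17, and 5 and 4 had no severe footprint. In all, *Col11a1* had 60 regions and *Col16a1* 54.

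In 3 of the 10 genes no shared region had its midpoint in coding sequence. *Ube3a*, the imprinted ubiquitin ligase gene, held 19 regions with a median of 457 nt, 15 of them in introns, and *Nkain2*, for a membrane protein of neurons, held 15, all intronic. *Kcnq1ot1*, an imprinted noncoding transcript that runs against *Kcnq1*, held 15 regions with a median of 559 nt, and *Kcnq1* spans all 15. A long antisense transcript is also known to run through *Ube3a* in neurons. The files have no strand, so sense and antisense cannot be told apart in either gene. UAG density was 15.1 per 1000 nt on the *Ube3a* strand and 13.3 on the other, and 12.7 on the *Kcnq1ot1* strand and 14.9 on the *Kcnq1* strand. In *Nkain2* it was 20.9 on the gene strand and 11.3 on the other. Severe EAE mouse 5 had footprints in all 19 shared *Ube3a* regions, 14 of 15 in *Kcnq1ot1* and 11 of 15 in *Nkain2*. In all, *Ube3a* had 77 regions, *Kcnq1ot1* 108 and *Nkain2* 248.

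Gene lists for the functions of the cord are given as counts, beside the 8.86% of footprinted genes that held a shared region. The lists are mostly of abundant or long genes, and the part of gene length and abundance in these counts was not tested. Of 15 genes of axonal transport motors, 12 held one, with 53 regions in all. After *Dync1h1*, the kinesin heavy chains *Kif5a*, *Kif1a* and *Kif5b*, which carry cargo towards the axon terminal, held 7 regions each, over 984, 958 and 886 nt. In *Kif5a*, naive mice 1 and 3 had footprints in all 7, naive mouse 2 in none, and mild EAE mice 3, 4 and 7 in 6, 4 and 7. Severe EAE mouse 5 also had footprints in all 7. Over shared and other regions together, *Kif5a* had 35, *Kif1a* 58 and *Kif5b* 29.

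Of 30 genes of the neurofilament and axonal cytoskeleton list, 15 held 93 regions. *Ank2* and *Ank3*, whose ankyrins tie membrane proteins to spectrin, held 12 and 9, and *Map2*, a dendritic microtubule-associated protein, held 3 over 2084 nt. Their regions in all numbered 118, 93 and 36. *Mapt*, for tau, held 1 of its 34 regions, a coding one of 133 nt with a common stretch of 47 nt at chr11:104306631-104306677 on the plus strand. It was covered over 114 and 68 nt in naive mice 2 and 3, over 63, 52 and 47 nt in mild EAE mice 3, 4 and 7 and over 61 nt in severe EAE mouse 5, with no footprint in naive mouse 1. The stretch holds no UAG.
Mapt: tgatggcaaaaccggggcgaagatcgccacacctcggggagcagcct

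Of 32 synaptic genes, 14 held 32 regions. *Pclo*, for the active zone scaffold piccolo, held 5 coding regions over 2614 nt, whereas *Nlgn1*, for a postsynaptic adhesion protein, held 4 regions that were all intronic. *Dlg2*, a postsynaptic scaffold gene, held 1 intronic region. Over shared and other regions together, *Pclo* had 41, *Nlgn1* 113 and *Dlg2* 115. Of 25 ion pump and channel genes, 9 held 31 regions, led by *Cacna1a*, a presynaptic calcium channel, with 10, and with 5 in *Atp2a2*, a calcium pump of the endoplasmic reticulum. *Cacna1a* had 61 regions in all and *Atp2a2* 22.

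Of 24 footprinted myelin and oligodendrocyte genes, 7 held 14 regions. *Mbp*, for myelin basic protein, held 4 over 1801 nt, 3 of them intronic, and naive mice 1, 2 and 3 had footprints in 4, 1 and 4, mild EAE mice 3, 4 and 7 in 1, 4 and 3, and severe EAE mouse 5 in 4. *Mag*, a myelin adhesion protein gene, held 3 coding regions, *Bcas1*, expressed by myelinating oligodendrocytes, held 3, and *Plekhb1* held 1. *Mbp*, *Mag*, *Bcas1* and *Plekhb1* had 51, 14, 16 and 9 regions in all. Of 15 footprinted astrocyte genes, 4 held 6 regions: 3 in *Slc1a2*, the glutamate transporter gene, and 1 each in the genes of connexin 43 (*Gja1*), aquaporin 4 (*Aqp4*) and aldolase C (*Aldoc*). In that order, these genes had 40, 4, 14 and 10 regions in all. Of 14 footprinted neuron markers, 3 held 5 regions, in *Map2*, *Tubb3* and *Stmn2*.

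No microglia or leukocyte marker and no endothelial or skeletal muscle marker held a shared region. Of 25 microglia and leukocyte genes, naive mice 1, 2 and 3 had any footprint in 0, 1 and 1, and mild EAE mice 3, 4 and 7 in 15, 12 and 14. A shared region needs 2 naive mice, so these genes could hardly meet the rule. Endothelial and muscle markers had a footprint in 1, 6 and 4 of 10 genes in the naive mice and in 0, 0 and 3 in the mild EAE mice.

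Among RNA-handling and housekeeping genes the counts varied. Of 44 hnRNP and splicing regulator genes, 10 held 23 regions. *Rbfox1*, a neuronal splicing regulator gene, held 4 intronic regions of its 219, and *Hnrnpm* held 6 coding regions of its 16. Each of the 6 was footprinted in naive mice 1 and 3, mild EAE mice 3 and 7 and severe EAE mouse 5. Neither naive mouse 2 nor mild EAE mouse 4 had a footprint in any of them. *Mbnl2* held 1 of 18 and *Hnrnpdl* 2 of 8. Of 17 translation factor genes, 8 held 20 regions, led by the scaffold genes *Eif4g1* with 5 and *Eif4g2* with 4, then *Eef1a2* and *Eif4b* with 2 each. In that order, they had 29, 24, 10 and 15 regions in all. Of 17 genes of glycolysis and creatine kinase, 7 held 19. *Gpi1* and *Pfkm*, for the isomerase and kinase of early glycolysis, held 8 of 21 and 6 of 25. *Pkm* held 1 of 12 and *Ldhb* 1 of 8. The *Pkm* region, in the 3′ UTR of the pyruvate kinase gene, was covered over 380 and 285 nt in naive mice 1 and 3, over 462, 238 and 423 nt in mild EAE mice 3, 4 and 7 and over 614 nt in severe EAE mouse 5. Of 18 chaperone genes, 2 held 3 regions, *Hsp90ab1* with 2 of 10 and *Hsp90aa1* with 1 of 12. Of 10 long noncoding RNA genes, 5 held 9. Among them *Rian* held 3 of 55, *Snhg11* 2 of 16, *Snhg14* 2 of 344 and *Meg3* 1 of 36. *Nrcam*, which the study examined, held none.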

How the data were processed

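The deposited files list, per mouse, the chromosome, start and end of each hnRNP A1 footprint in GRCm38, with no other value; the unit of these columns is a coordinate. According to the labels and the study's methods, the authors trimmed reads with fastp, assembled each library into contigs and aligned them with minimap2 2.17. Sites of the matched input and pooled control IgG libraries (IgG2a in the labels, IgG2b in the methods) were subtracted and overlaps merged with bedtools. The lists thus hold no read depth, and the mapped reads per library that the study gives were not used. The 12 input and IgG libraries were not analysed here. Here, 136207 footprints were joined into union regions and placed by midpoint in GENCODE mouse release M21 exons. The 568 on unplaced sequences were not annotated. Motifs were counted on the gene strand in the RefSeq GRCm38 sequence. Mice gave 1 value each, and two-sided exact sign-flip or permutation tests were run with Benjamini-Hochberg adjustment in Python 3.11.15 with numpy 2.4.6. The counting was tested on simulated lists, in which 200 of 200 seeded regions were recovered. Those regions were spaced apart and made to meet the rule, so this checks the code and not dense or chained footprints. Genes named are the 10 with the most shared regions, up to 4 per list by nucleotides in shared regions, and *Mapt*, *Nrcam* and *Pkm*, and results for some of the genes so chosen are not reported here. Regions named are the 8 with the longest stretch in all 6 mice and no severe footprint and the 4 with the most UAG. The regions, lists and tests were chosen with earlier results of these data known. Alternatives were each mouse left out, footprint length limits, protein-coding genes only, chromosomes only and other forms of the rule.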

Additional observations from a re-analysis of the deposited data

Results flagged for a closer look

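Severe EAE mouse 5 stood apart from the other 3 severe mice. It had footprints in 1935 shared regions, and 6.56% of its own footprints lay in them, where the others had 2 to 30 regions and 0.957% to 1.19%. Chance alone sets apart about 1 in 20 groups of this kind. Presence in the severe mice was used by the rule, so that rate does not hold as a test here and nothing is read from the flag. Mouse 5 also had the longest list, whose part in this was not tested. The study itself describes this animal as an outlier, with a binding profile like that of naive and mild EAE mice. It reports that the animal was flagged for reproducibility and had been in remission shortly before the experiment ended. The exonic share of shared regions against own-group regions ran in opposite directions, 12.3 percentage points higher on average in the 3 naive mice and -8.51 in the 3 mild EAE mice, with every mouse of a group on the same side. This difference between the groups was not tested.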

How the results depend on the processing

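No paired analysis was possible because the mouse numbers name different animals in each group. The footprints carry no read depth, and no count here was corrected for the mapped reads per library that the study lists. Among the immunoprecipitations in that list, naive mouse 2 had the fewest mapped reads and severe EAE mouse 5 the most. The footprint list of naive mouse 2 was still as long as those of the other naive mice. Of the severe mice with short lists, mouse 1 lay between naive mice 1 and 3 in mapped reads, mouse 2 above both and mouse 6 just below both. Among the inputs, that of severe EAE mouse 2 had the most mapped reads. The part of library depth in the counts was not tested. The number of shared regions, 2493, fell to 518 with no severe footprint allowed and to 268 with all 3 naive and all 3 mild EAE mice required. It ranged from 932 to 2699 with 1 mouse left out, lowest without naive mouse 1 (932), naive mouse 3 (981), mild EAE mouse 7 (1218), mild EAE mouse 3 (1293) and mild EAE mouse 4 (1621), where 2 of 2 mice of that group were needed. None of the 12 tests passed an adjusted p of 0.05 as planned or under any alternative run. With 5 mice the sign-flip test could not give a p below 0.0625, nor the permutation tests of 3 against 3 one below 0.1. Those runs could not pass, so no lack of a difference is read from them. With 1 mouse left out, the exonic share against own-group regions ranged from -0.797 to 4.12 percentage points, and mild minus naive ranged from -7.70 to 3.69 covered nt, from -1.11 to 2.55 UAG per 1000 nt and from -1.90 to 1.76 points of exonic share. The within-minus-between overlap ranged from -0.0158 to 0.0309. With footprints of 30 to 200 nt, the length difference against other footprints turned to -0.0439 on the log2 scale and the covered nt, mild minus naive, to 0.464. In exons only, an alternative chosen after seeing the data, the UAG differences turned to -0.0361 and -0.138 on the log2 scale. Footprint length, 1.10-fold and 1.07-fold that of the references in 5 of 6 mice each (exact permutation p = 0.0625, adjusted p = 0.0833), bears on the rule itself, since longer footprints overlap more easily.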
